A study of Arabidopsis thaliana with 9 samples.

Results

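GRFs, or growth-regulating factors, promote leaf and organ growth as transcription factors that work with GIF coactivators, and the microRNA miR396 holds them down. Auxin response factors (ARFs) are a separate family. They bind auxin response elements in promoters through a B3-type DNA-binding domain and turn genes on or off as the plant hormone auxin changes. At low auxin, Aux/IAA proteins bind ARFs and repress their targets. Auxin joins Aux/IAA proteins to the receptors TIR1 and AFB, which leads to their destruction and frees the ARFs.

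The 10 genes described here were ARF2, ARF12, ARF13, ARF14, ARF15, ARF19, ARF20, ARF21, ARF22 and ARF23, out of 27444 protein-coding genes on chromosomes 1 to 5. They were selected on GRF1 peaks in these same libraries, together with relatives from the same stretch of chromosome 1. The GRF1 counts below are therefore a description and were not tested. ARF12, ARF13, ARF14, ARF15, ARF20, ARF21, ARF22 and ARF23 are 8 closely related genes on chromosome 1. ARF19 lies elsewhere on chromosome 1, and ARF2 is on chromosome 5.

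The peaks came from chromatin immunoprecipitation with sequencing (ChIP-seq) of whole Arabidopsis thaliana plants of strain Ws, 2 weeks old and grown on MS medium. Plants carried 35S:GRF1-GFP, 35S:GRF3-GFP or, as the control genotype, 35S:GFP, with 3 samples each. All 3 transgenes were driven by 35S, a strong promoter active in most tissues, so the tagged factors could be present in cells that do not normally make them. DNA was recovered with an antibody to GFP in every group. The 3 samples with 35S:GFP came without peaks and were not analysed here. The labels describe 3 replications in blocks at planting, and do not say whether chromatin was prepared from separate plantings.

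Each of the 6 libraries had its own list, of 1410, 1122 and 1878 peaks for GRF1-GFP replicates 1, 2 and 3, and of 2258, 2301 and 5944 peaks for GRF3-GFP replicates 1, 2 and 3. A fold is the authors' enrichment of a peak over the control given to the peak caller, and the sources used here do not say what that control was. Every list stopped near a −log10 q of 1.30, so weaker enrichment left no entry. No list holds read counts, so depth is unknown. As a check of the tagged genes, all 3 GRF1-GFP libraries had peaks at GRF1, with highest folds of 2.64, 3.32 and 3.01, and none had a peak at GRF3. All 3 GRF3-GFP libraries had peaks at GRF3, with highest folds of 10.6, 10.9 and 16.2, and replicate 3 alone also had 2 peaks at GRF1.

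Overlapping peaks present in at least 2 of the 3 libraries of a factor were joined into a region. A gene was said to have the region when the summit, the highest point of the peak, was inside the gene span or within 1 kb of it. By that rule 7 of the 10 genes had a GRF1 region: ARF2, ARF14, ARF15, ARF19, ARF21, ARF22 and ARF23. Over all protein-coding genes the share was 3.11%, and nothing is read from the difference because GRF1 peaks chose the genes. In 4 genes, ARF14, ARF19, ARF22 and ARF23, the region was in all 3 GRF1-GFP libraries, a state found in 2.29% of all genes. ARF15 and ARF21 were listed in replicates 1 and 3, and ARF2 in replicates 1 and 2, so these 3 stood at the limit of the rule.

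ARF12, ARF13 and ARF20 had no peak within 1 kb in any of the 6 lists, so the description of the genes as carrying GRF1 regions did not hold for them. The nearest GRF1 summit was 22614 bp from ARF12, 13954 bp from ARF13 and 19608 bp from ARF20. The nearest GRF3 summit was 3569 bp from ARF12, 2014 bp from ARF13 and 9003 bp from ARF20, each with a fold between 2.01 and 2.42 in the library that held it.

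**Figure D1:**
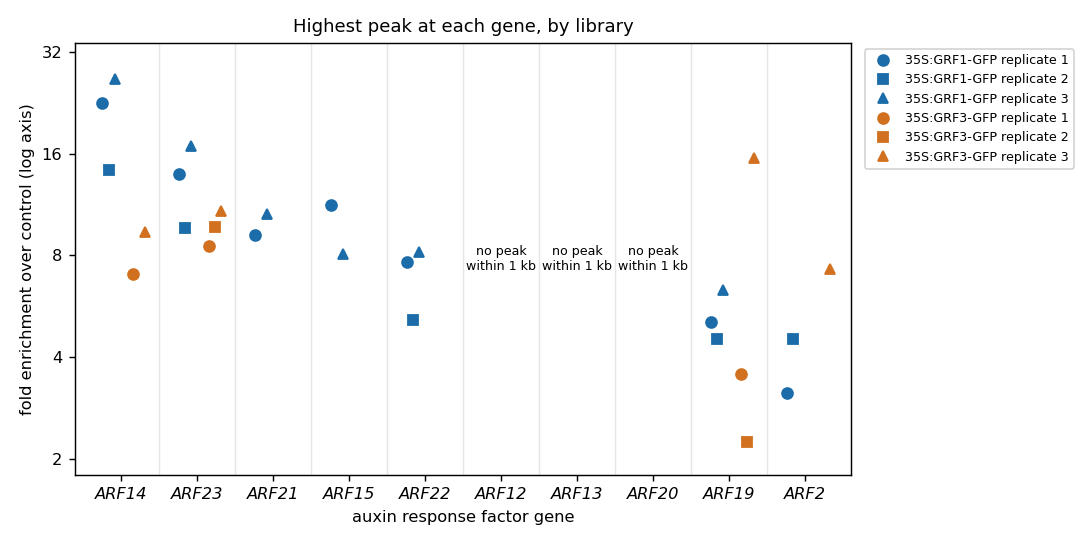
Fold enrichment over the control (log axis) of the highest peak inside or within 1 kb of each gene, with a symbol for each library that listed one. ARF14 has the highest GRF1-GFP folds, 14.3 to 26.5, and ARF12, ARF13 and ARF20 have no symbol.

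Among the related genes on chromosome 1, ARF14 (AT1G35540) carried the highest GRF1 folds. They were 22.5, 14.3 and 26.5 in GRF1-GFP replicates 1, 2 and 3, for peaks within chr1:13108894-13109203, and the mean was 21.1 ± 6.2 (SD, n = 3). The region ranked 64 by mean fold among the 1147 GRF1 regions of the genome. Between 92.8% and 96.7% of the peaks of each GRF1-GFP list had a lower fold than the ARF14 peak. The GRF3-GFP libraries had a peak at the same place in replicates 1 and 3, with folds of 7.04 and 9.41, and none in replicate 2. The 3 GRF1 summits and the 2 GRF3 summits fell within 42 bp of each other, and both GRF3 summits lay to the right of all 3 GRF1 summits. GRF3-GFP replicate 3 also had a peak at chr1:13112568-13112878 with a fold of 1.99, whose summit lay 1137 bp outside the span and just beyond the 1 kb limit.

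ARF23 (AT1G43950) has the shortest span of the 10 genes, 1371 bp. Its GRF1 folds were 14.0, 9.65 and 16.8 in replicates 1, 2 and 3, with a mean of 13.5 ± 3.6 (SD, n = 3), at chr1:16673554-16673825. ARF14 was above ARF23 in all 3 GRF1-GFP libraries, although the ranges over libraries overlapped. ARF23 was also listed in all 3 GRF3-GFP libraries, with folds of 8.55, 9.73 and 10.8 and a mean of 9.71 ± 1.14 (SD, n = 3). The GRF3 peaks were 852 to 871 bp wide, against 261 to 272 bp for the GRF1 peaks. All 3 GRF3 peaks started at base 16673557, and the GRF1 peaks started there or 3 bp before.

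The GRF3 summits at ARF23 fell in different places. In replicate 1 the summit was 1 bp from the median GRF1 summit, inside the gene span. In replicates 2 and 3 it lay 573 and 558 bp further along the chromosome, 300 and 285 bp outside the span. The peaks of the 2 factors thus shared their left edge, while the highest GRF3 point was at the GRF1 place in 1 library of 3.

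ARF22 (AT1G34390) had a GRF1 peak in all 3 libraries, with folds of 7.64, 5.14 and 8.20 and a mean of 6.99 ± 1.63 (SD, n = 3). The region was chr1:12556255-12556519, and the 3 summits fell within 2 bp. ARF22 had no GRF3 peak within 1 kb, and the nearest GRF3 summit was 4002 bp away, in replicate 3. ARF22 thus combined full support in the GRF1-GFP lists with no entry in the GRF3-GFP lists.

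ARF21 (AT1G34410) had GRF1 folds of 9.20 and 10.6 in replicates 1 and 3, at chr1:12577968-12578244. ARF15 (AT1G35520) had GRF1 folds of 11.2 and 8.08 in the same libraries, at chr1:13085429-13085766. ARF15 was higher in replicate 1 and ARF21 in replicate 3, so no order could be set between them. Neither gene had a GRF3 peak within 1 kb. The library that lacked both, GRF1-GFP replicate 2, had the fewest peaks and the highest median fold, 4.52, against 2.43 in replicate 1 and 2.60 in replicate 3; the part of this in their absence was not tested. Regions found in replicates 1 and 3 alone numbered 419 of 1147. The 4 folds at ARF15 and ARF21 were all above the median folds of their lists, and the regions ranked 183 and 177 among the 1147 by mean fold. Their means leave out replicate 2, while the means of regions listed there include it.

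**Figure D2:**
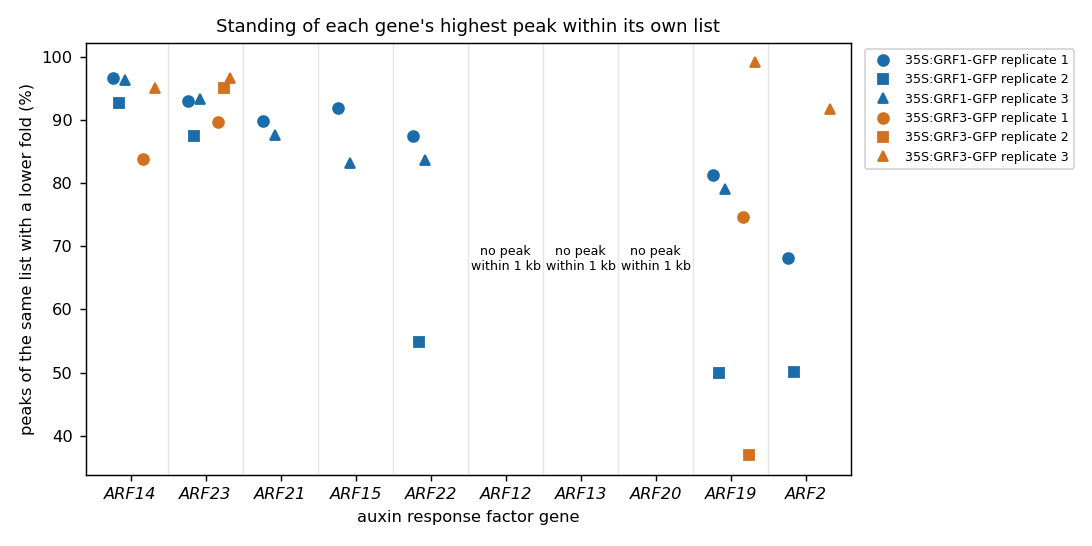
Percent of peaks in the same list with a lower fold than the gene's highest peak, for each library with a peak at the gene. ARF14 and ARF23 stand at 87.5% or more in every GRF1-GFP list, while ARF19, ARF22 and ARF2 fall to between 49.9% and 54.9% in GRF1-GFP replicate 2.

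The 5 related genes with a GRF1 region carried it at a similar distance from an edge of the gene. In ARF14, ARF15, ARF21, ARF22 and ARF23 all 13 GRF1 summits were inside the gene, 266 to 346 bp from its nearer edge, and the peaks were 255 to 320 bp wide. The nearer edge was the left one on the chromosome in ARF14, ARF21 and ARF22 and the right one in ARF15 and ARF23. The gene table used here gives no strand, so which edge is the start of the gene was not assigned. This resemblance was noticed after the values were seen. Taking region summits, the 5 genes lay 269 to 340 bp from the edge, and 22 of 308 pairs of a gene and a GRF1 region inside it (7.14%) fell in that band. The 22 include these 5. The median distance over the 308 pairs was 256 bp. As a share of the span, the ARF23 summits lay 19.8% to 20.9% from the edge, and those of the other related genes 8.83% to 11.3%. Gene spans came from assembly TAIR10.1 and peaks from TAIR10, and an offset between them would change distances from left and right edges in opposite directions. Related genes can share sequence, and reads that match several copies are placed by the aligner's settings, which the sources used here do not state. Sequences of the genes were not compared here, and the part of shared reads in these peaks was not tested.

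**Figure D3:**
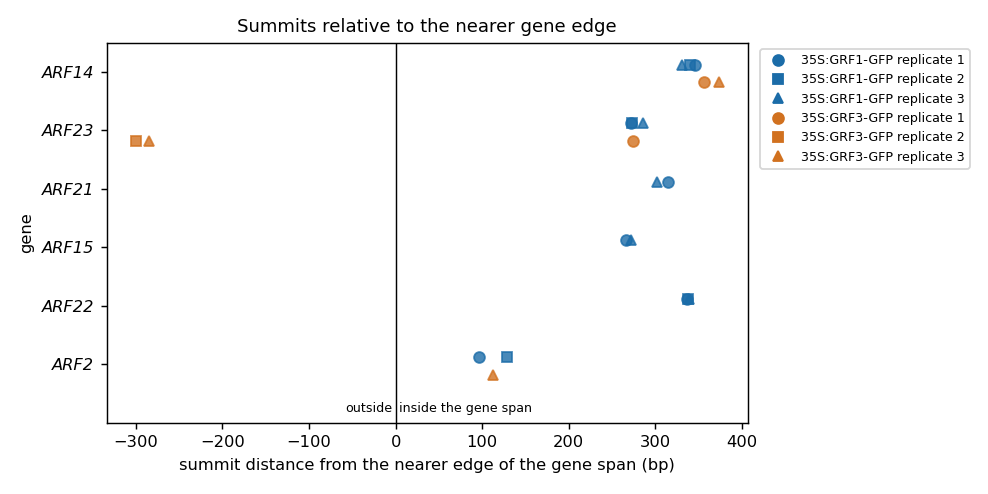
Distance in bp of each library's summit from the nearer edge of the gene span, for 6 genes with a GRF1 region (positive inside the span, negative outside; ARF19, whose summits are near the middle of the gene, is not drawn). The GRF1-GFP summits of ARF14, ARF15, ARF21, ARF22 and ARF23 lie between 266 and 346 bp, and those of ARF2 at 96 and 129 bp.

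ARF19 (AT1G19220), an activator known for lateral root formation together with NPH4 (also called ARF7), was listed in all 6 libraries. The GRF1 folds were 5.09, 4.52 and 6.34 in replicates 1, 2 and 3, with a mean of 5.32 ± 0.93 (SD, n = 3), at chr1:6630292-6630565. The GRF3 folds were 3.58, 2.24 and 15.6 in replicates 1, 2 and 3, with a mean of 7.13 ± 7.33 (SD, n = 3), at chr1:6630273-6630542. The GRF1 folds were close together, while the GRF3 folds were spread widely. In GRF3-GFP replicate 3 the peak ranked 48 of 5944 by fold, and in replicate 2 it ranked 1451 of 2301. All 6 summits fell within 25 bp, near the middle of the gene, 2645 to 2670 bp from its nearer edge. GRF3-GFP replicate 3 listed 2 further peaks, with folds of 2.29 and 2.31, at chr1:6627122-6627375 outside the span and chr1:6629617-6629850 inside it.

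ARF2 (AT5G62000), a repressor known for limiting seed and organ size and for promoting leaf senescence, had the lowest GRF1 folds in replicate 1 and no entry in replicate 3. The folds were 3.14 in replicate 1 and 4.52 in replicate 2, at chr5:24910179-24910606. In replicate 2 it stood level with ARF19, both at 4.52. The single GRF3 peak was in replicate 3, with a fold of 7.28, at chr5:24910182-24910445. The summits of these 3 libraries lay within 33 bp, 96 to 129 bp inside the left edge of the span. The peaks started within 4 bp of each other.

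**Figure D4:**
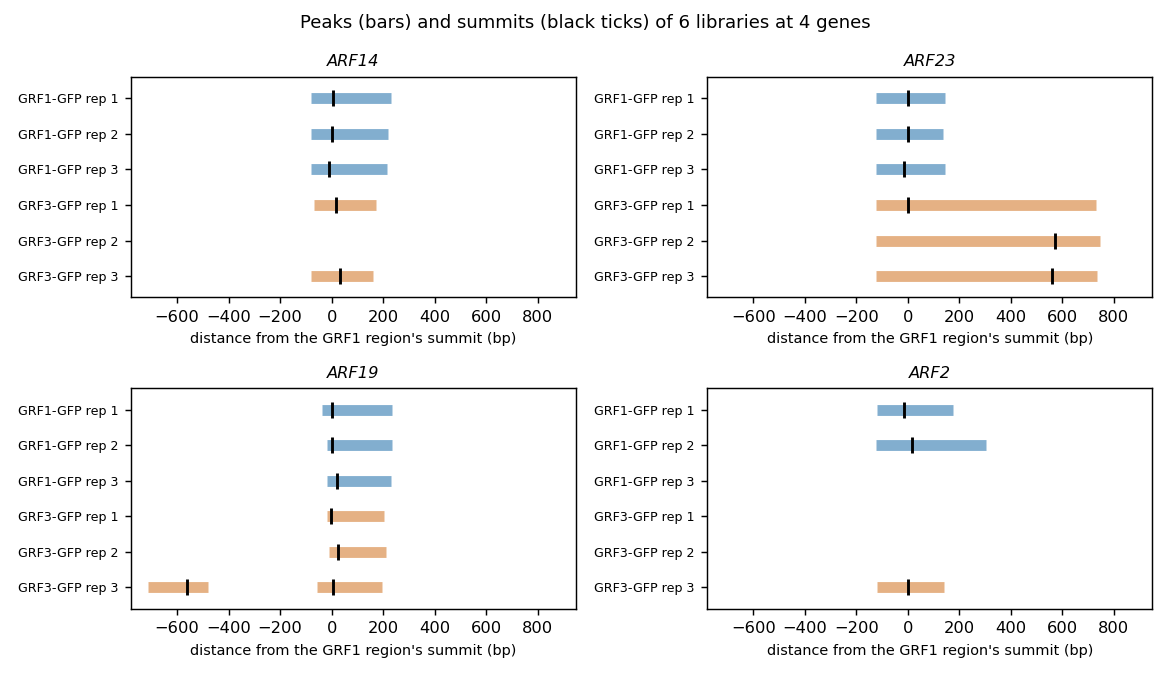
Peaks (bars) and summits (black ticks) of the 3 GRF1-GFP and 3 GRF3-GFP libraries at 4 genes, in bp from the summit of the GRF1 region. At the GRF1 place, GRF1-GFP and GRF3-GFP summits lie within 42 bp at ARF14, 25 bp at ARF19 and 33 bp at ARF2. At ARF2 1 GRF3-GFP library has a peak. At ARF19 GRF3-GFP replicate 3 has a further peak to the left, at chr1:6629617-6629850. At ARF23 the GRF3-GFP peaks run on to the right, with summits 573 and 558 bp away in replicates 2 and 3.

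In the order of GRF1 folds within a library, ARF14 and ARF23 came first and second in all 3 libraries. Below them, ARF15, ARF21 and ARF22 changed places among themselves between libraries. ARF19 was above ARF2 in replicate 1 and level with it in replicate 2, and replicate 3 did not list ARF2. In the GRF3-GFP libraries ARF23 was the highest of these genes in replicates 1 and 2 and ARF19 in replicate 3.

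Regions of GRF3 were present at 3 of the 10 genes, ARF14, ARF19 and ARF23, against 5.52% of all protein-coding genes. All 3 were also genes with a GRF1 region, and in each the regions of the 2 factors overlapped by at least 1 bp. Such a shared place was found at 0.809% of all genes. Because GRF1 peaks chose the list, the genes with a GRF1 region are the closer comparison. Among those, 3 of 7 in the list (42.9%) also had a GRF3 region, against 249 of 854 in the genome (29.2%), and no test of this difference was made. The control behind both sets of peaks is not given, and its part in the shared places was not tested. At ARF15, ARF21 and ARF22 no GRF3-GFP library had a peak, and at ARF2 1 of 3 did.

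The edges of these regions were repeated closely in some genes and less so in others. In the 4 genes with all 3 GRF1-GFP libraries, left edges agreed within 1 bp at ARF14, 3 bp at ARF23, 4 bp at ARF22 and 18 bp at ARF19. Over all 588 GRF1 regions in all 3 libraries the median spread of left edges was 29 bp. Right edges agreed within 13, 8, 6 and 6 bp in the same genes, against a median of 35 bp. In the 3 genes listed in 2 GRF1-GFP libraries, left edges differed by 4 bp at ARF2, 38 bp at ARF15 and 4 bp at ARF21, and right edges by 129, 18 and 18 bp in the same genes. For GRF3 regions in all 3 libraries, left edges differed by 46 bp at ARF19 and 0 bp at ARF23, against a median of 35 bp, and right edges by 16 and 19 bp, against 39 bp.

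Most of these places had no other gene within 1 kb. No summit of a GRF1 region at the 7 genes lay inside or within 1 kb of another protein-coding gene. At ARF2 and ARF14 it lay within 1 kb of a long noncoding RNA gene, AT5G09045 at 583.5 bp and AT1G06907 at 738 bp. The other 5 places had no neighbour of any kind in the gene table within 1 kb. With a limit of 3 kb, 6 of the 7 places had a neighbour. The same share over all GRF1 regions was not computed, so nothing is read from these counts.

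The surroundings of the listed genes carried regions as well. Within 100 kb of the 8 genes on chromosome 1 lay 136 other protein-coding genes, of which 12 had a GRF1 region (8.82%, against 3.11% of all genes) and 13 a GRF3 region (9.56%, against 5.52%). These were spread unevenly. Taken gene by gene, other listed genes included, the GRF1 count ran from 0 of 28 around ARF20 to 7 of 43 around ARF13. Counted as regions, GRF3 was densest around ARF23. Within 100 kb of ARF23 lay 13 GRF3 regions, its own included, of which 7 were in all 3 libraries. Only 3 of 21 other protein-coding genes there had one. Around the other related genes the GRF3 regions ran from 2 at ARF20 to 10 at ARF21. Around ARF19 the counts were 4 and 2 of 57 (7.02% and 3.51%), and around ARF2 3 and 3 of 54 (5.56% each).

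Other genes of the auxin pathway were read from lists of 13 ARF, 6 receptor and 29 Aux/IAA genes. None of the 13 other ARF genes had a peak in any GRF1-GFP list. The 10 genes were selected on GRF1 peaks, so the lack of a GRF1 region among the remaining ARF genes follows from that choice. Nothing is read from it. None of the 6 receptor or 29 Aux/IAA genes had a GRF1 region, against 3.11% of all genes. NPH4, the partner of ARF19, had a GRF3 region, with folds of 1.83 and 2.45 in replicates 1 and 3. Only 9.43% and 41.2% of the peaks in those lists had a lower fold. Single GRF3-GFP libraries had a peak at MP, an activator of embryo and vascular patterning (fold 2.80), at ARF6 and ARF8, which act in flower maturation (1.76 and 2.52), and at ARF10 (1.88). Of the 6 receptor genes, TIR1 had a GRF3 region, with highest folds of 2.06 and 2.45 in replicates 1 and 3, and GRH1, also called AFB1, a peak in replicate 3 (2.25). At TIR1, 24.5% and 40.5% of the peaks in the lists of replicates 1 and 3 had a lower fold. None of the 29 Aux/IAA genes had a GRF3 region. IAA11 had a peak in GRF1-GFP replicate 2 (fold 1.99) and IAA33 in GRF3-GFP replicate 3 (2.90). Lists of this size are too small for these counts, 0 for GRF1 and 1 GRF3 region each among the ARF and receptor genes, to be told apart from the shares over all genes, 3.11% and 5.52%.

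The genes most like ARF14, ARF19 and ARF23 were found from the standing of each gene's highest peak within its list, as a percentile, over the 6 lists. For ARF14 these were DAD2, at a mean difference of 1.34 percentile points, and VPS60.2 and its neighbour AT5G04853, at 2.26 points. For ARF23 they were AT5G33330, at 1.78 points, and AT5G08720 and its neighbour ARI16, at 2.47 points. ARF19 had no such close match: AT2G31370 and its neighbour STH were 8.86 points away and AT3G42060 was 9.17 points away. None of them is an ARF gene.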

How the data were processed

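Members and gene lists were chosen with earlier results of these data known. The submitters' processing notes name FastQC, Trimmomatic, Bowtie2, MACS2 and the build TAIR10, with no version, setting or role. The authors deposited 1 peak list per library. Per the deposited lists, each peak has a position, a summit, a score (10 times −log10 q, cut to a whole number), a fold (a ratio over the control), a −log10 p and a −log10 q. Folds and ranks of single peaks describe them within a list. Means of folds, and the ranks of regions by mean fold, are over the libraries that listed the peak. They join lists with different median folds.

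Genes came from the RefSeq table of assembly TAIR10.1, which has spans but no strand, exons or UTRs; all 10 genes matched by symbol. Other ARF genes were matched by symbol or synonym and by product name, since ARF1 and ARF3 also name ADP-ribosylation factors. A library's highest peak gave its summit, and the median over libraries gave that of the region. Coordinates count from 1. Region building was checked on simulated peaks. No test was run, since GRF1 peaks chose the genes. Gene sequences were not used here. The named genes followed a fixed rule: the 10 genes, pathway genes with any peak, neighbours, the 3 nearest in rank for each gene listed in 4 or more libraries, and the tagged genes. Alternatives were higher −log10 q or fold, regions in all 3 libraries, lists of equal length, other distances and overlaps, and leaving out each library. Python 3.11.15 and pandas 2.3.3 were used.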

Additional observations from a re-analysis of the deposited data

How the results depend on the processing

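The count of genes with a GRF1 region stayed within 1.5 times of 7 in 12 of 14 alternatives. The 14 include leaving out each GRF3-GFP library, which cannot change a GRF1 count. The count was 4 with regions in all 3 libraries. Leaving out a library kept the need for 2 libraries, so a region had to be in both that remained for its factor. Which genes dropped out thus follows from the libraries that listed them. The count was also 4 without GRF1-GFP replicate 1, which removed ARF2, ARF15 and ARF21. Without replicate 2 it was 6, with ARF2 removed, and without replicate 3 it was 5, with ARF15 and ARF21 removed. The count with a GRF3 region was 2 or 3 in all 14 alternatives, of which leaving out a GRF1-GFP library cannot change it. The count with a shared place was 2 or 3 in all 16. It was 2 with a reciprocal overlap of at least 50% and 2 with summits within 100 bp. At ARF23 the region summits were at bases 16673679 for GRF1 and 16674237 for GRF3, beyond the 100 bp limit. ARF14 lost its GRF3 region when regions had to be in all 3 libraries, and without GRF3-GFP replicate 1 or 3. ARF19 lost it at a fold of at least 4, and ARF23 lost it when the summit had to be inside the span. ARF12, ARF13 and ARF20 had no region in any alternative, summits within 3 kb included. The count of genes whose GRF1 place was also a neighbour's, 2 as reported, depended most on the setting. It was 1 with a fold of at least 4 and with regions in all 3 libraries, 0 with summits within 500 bp or inside the span, 6 with summits within 3 kb, and 1 to 2 when each library was left out. Leaving out each library in turn, the mean GRF1 fold ran from 18.4 to 24.5 at ARF14, from 11.8 to 15.4 at ARF23, from 6.39 to 7.92 at ARF22 and from 4.80 to 5.71 at ARF19. Depth is unknown, so the lack of a peak cannot be told apart from enrichment too weak for the list.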
